A study of Mus musculus with 4 samples.

Results

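The p53 target genes examined here were 33 genes of the deposited count table, chosen by gene symbol from general knowledge of the p53 pathway. The choice was made with earlier results of these data known. These genes were 33 of 54532 in the table. Of them, 32 were among the 13233 genes with a mean of at least 1 CPM over the libraries. CPM is the count relative to the size of its library. The study sequenced mRNA to follow gene expression after depletion of DNMT1, the maintenance DNA methyltransferase, in C3H10T1/2 mesenchymal stem cells (MSCs), a mouse line of C3H embryo origin that can enter the bone, cartilage and fat lineages. Cells of the control group received control siRNA for 48 h and were left untreated, and those of the siDNMT1 group received DNMT1 siRNA in the same way. The OB group received control siRNA and the siDNMT1_OB group DNMT1 siRNA, and both were then kept for 3 days in osteoblast (OB) induction medium with L-ascorbic acid at 50 µM, β-glycerophosphate at 10 mM and dexamethasone. Each group was 1 library of 1 cell line, so no difference below has a replicate check. The fold changes carry counting intervals and no p-value, and an additive fit given near the end takes its spread from 1 residual degree of freedom. The uninduced pair (siDNMT1 against control) and the induced pair (siDNMT1_OB against OB) share no library, whereas each shares a library with both induction comparisons.

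The p53 protein is a transcription factor that is kept at low levels by the ubiquitin ligase MDM2 and is stabilized after DNA damage and other stress. It then switches on genes for cell cycle arrest, DNA repair, cell death and metabolism, together with its own inhibitors, MDM2 among them, which closes a feedback loop. Loss of DNMT1 is known to activate p53 in mouse embryonic fibroblasts. Much p53 activity is set at the protein level, so the mRNA of Trp53 need not follow it.

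The knockdown itself was read from Dnmt1. It had 7195 (control), 3375 (siDNMT1), 1931 (OB) and 2492 counts (siDNMT1_OB), or 265, 132, 85.4 and 93.1 CPM. Dnmt1 was lower in siDNMT1 than in control, with a log2 fold change of −1.01 (95% counting interval −1.07 to −0.95), but in the library labelled siDNMT1_OB it was not lower than in OB (0.13, 0.04 to 0.21). This bears on all directions that involve the library labelled siDNMT1_OB. Total counts ran from 22296046 to 27367792 per library, and the p53 target genes summed to between 2225 and 2767 CPM. Of 10 mesenchymal markers, 9 passed the filter and Nt5e had 8 to 50 counts. Of 10 markers of blood, endothelial, epithelial and neural cells, 6 had 3 counts or fewer in every library, with a summed level of 3.39 to 4.29 CPM over the list. Of 7 osteoblast markers, 3 passed the filter (Runx2, Dlx5 and Spp1), and the list summed to between 274 and 642 CPM. Alpl had at most 2 counts and Bglap at most 3. In such bulk RNA, fewer cells of one kind and less RNA per cell cannot be told apart. The level of the 20 proliferation genes listed moved with the conditions, summing to 3398 (control), 3033 (siDNMT1), 731 (OB) and 1409 CPM (siDNMT1_OB).

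To show where the p53 consensus occurs near these genes, the RefSeq windows from 250 bases before to 50 bases after each start site (GRCm38.p6) were searched for the p53 half-site consensus, which reads the same on both strands. Windows were found for 25 of the 33 genes, in 35 windows. A half-site match was present in 10 of the 25 genes (40.0%), against 2582 of 27025 genes (9.55%) in the whole set. Per window the shares were 31.4% and 8.36%, and both windows of Aen, which overlap, hold the same match. The genes were Mdm2, Ccng1, Trp53, Ppm1d, Bax, Ei24, Aen, Gadd45a, Sesn1 and Polk. Stretches of 60 bases are shown for 6 of them: 4 of the p53 core and cell death machinery, none past 2-fold in any comparison, and Gadd45a and Sesn1, which were past 2-fold in at least 1. They lie at chr10:117710910-117710969 (minus strand, Mdm2), chr11:40755437-40755496 (minus, Ccng1), chr11:69580259-69580318 (plus, Trp53), chr7:45467065-45467124 (minus, Bax), chr6:67037413-67037472 (minus, Gadd45a) and chr10:41887241-41887300 (plus, Sesn1). Each is upstream of a start site and is written from 5′ to 3′ along the gene, with the 10-base half-site in capitals.
Mdm2: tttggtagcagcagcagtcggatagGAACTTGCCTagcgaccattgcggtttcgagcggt
Ccng1: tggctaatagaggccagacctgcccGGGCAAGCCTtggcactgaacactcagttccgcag
Trp53: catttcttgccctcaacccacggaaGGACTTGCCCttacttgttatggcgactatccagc
Bax: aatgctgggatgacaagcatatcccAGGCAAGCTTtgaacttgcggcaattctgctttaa
Gadd45a: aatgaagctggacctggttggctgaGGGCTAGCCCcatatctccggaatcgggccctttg
Sesn1: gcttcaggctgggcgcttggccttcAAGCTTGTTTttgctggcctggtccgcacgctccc

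A full p53 element is a pair of half-sites. Pairs separated by 0 to 13 bases were found in 24 of all 32851 windows (0.0731%) and in no window of the 25 genes. One of the 24 belonged to Cdkn1a, the cell cycle inhibitor p21 and the best known p53 target, at chr17:29090906-29090937 on the plus strand with a spacer of 12 bases.
Cdkn1a: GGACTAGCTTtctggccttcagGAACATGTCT
The known p53 elements of Mdm2 and Gadd45a lie in introns, outside these windows. The 10 genes with a half-site match held 2 genes past 2-fold in at least 1 comparison (Gadd45a and Sesn1), and the 15 genes with a window but no match also held 2 (Btg2 and Epha2). The 7 tested genes without a window held 3 (Trp53inp1, Perp and Ddb2). In all, 7 of 32 genes were past 2-fold in at least 1 of the 4 comparisons, against 20.7% of all genes tested. A match is a description of the letters in this window and not evidence of binding.

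**Figure D1:**
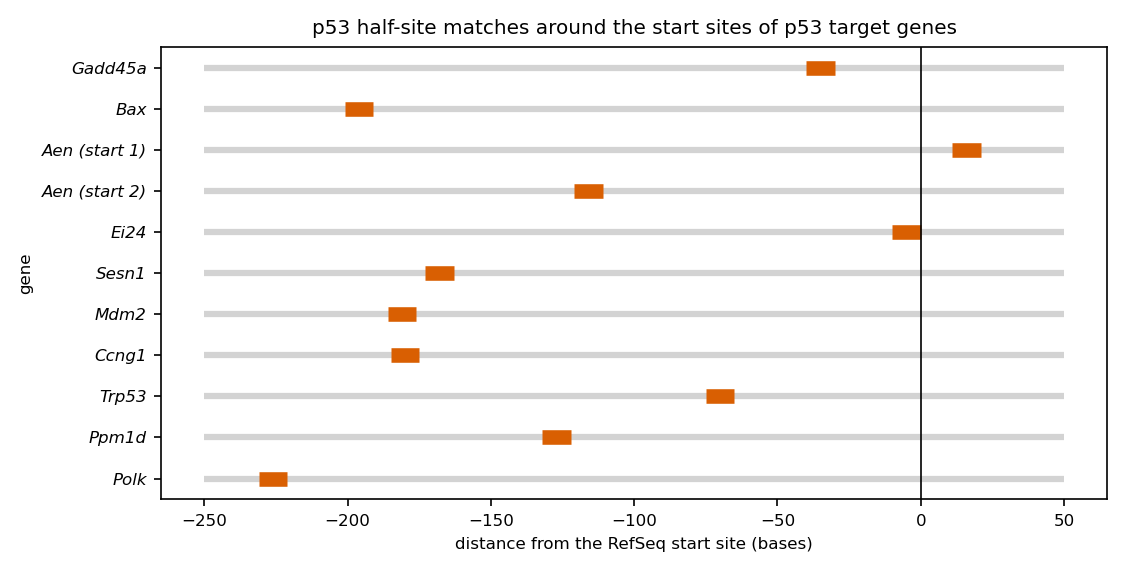
Position of p53 half-site matches (orange) in the window around RefSeq start sites (grey bars), in bases from the start site, for the 10 p53 target genes that held one. Aen appears with both of its start sites, whose windows hold the same match. The match of Ei24 ends at the base before the start.

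Among the p53 target genes, the difference between siDNMT1 and control reached 2-fold for 1. Gadd45a, which encodes a stress protein of growth arrest, was higher in siDNMT1 than in control. In all, 1 of 32 genes was at least 2-fold higher (Gadd45a) and 0 were 2-fold lower, against 1.97% and 1.37% of all genes tested. At 1.5-fold, 3 were higher (Gadd45a, Trp53inp1 and Btg2) and 0 lower, against 6.37% and 4.49% of all genes. The median log2 fold change was 0.06 over the 32 genes and −0.00 over all genes, and 25 of the 32 (78.1%) lay within 0.5 of 0, against 85.5% of all genes. Counting intervals lay above 0 for 15 of the 32 and below 0 for 3. Over all 13233 genes they lay above 0 for 3441 and below 0 for 3548, so that 52.8% were off 0.

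In OB-induced cells, 26 of 32 p53 target genes had a log2 fold change above 0 between the library labelled siDNMT1_OB and OB, against 52.2% of all genes tested. The sizes were small, with a median of 0.22 against 0.01. Btg2, an antiproliferative gene, was the 1 gene at least 2-fold higher and 0 were 2-fold lower, against 2.36% and 1.37% of all genes. Under total count, upper quartile or pairwise TMM scaling Btg2 fell just short of 2-fold. At 1.5-fold, 4 were higher (Btg2, Epha2, Aen and Perp) and 1 was lower (Sesn1, a sestrin that limits mTORC1 signalling), against 6.73% and 4.8%. Counting intervals lay above 0 for 18 and below 0 for 4, and over all genes above 0 for 3652 and below 0 for 3123 (51.2% off 0). In this pair all 20 proliferation genes had a log2 fold change above 0 as well, with a median of 0.99. Of these, 9 were at least 2-fold higher, against 2.36% of all genes. In the uninduced pair 18 of the 20 proliferation genes lay below 0, with a median of −0.23, and 0 were 2-fold lower, against 1.37%. Their part in the values of the p53 target genes was not tested.

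OB induction was accompanied by larger differences, in both directions. With control siRNA, 4 of 32 genes were at least 2-fold higher (Trp53inp1, Sesn1, Perp and Ddb2) and 2 were lower (Epha2 and Gadd45a), against 10.6% and 7.1% of all genes. Between siDNMT1 and the library labelled siDNMT1_OB, 3 were higher in the latter (Perp, Trp53inp1 and Sesn1) and 1 was lower (Gadd45a), against 6.83% and 2.71%. The medians over the 32 genes were −0.10 and 0.03, against 0.01 and 0.00 over all genes. The proliferation genes had medians of −2.22 and −1.08 in the same comparisons, and their part in these values was not tested.

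**Figure D2:**
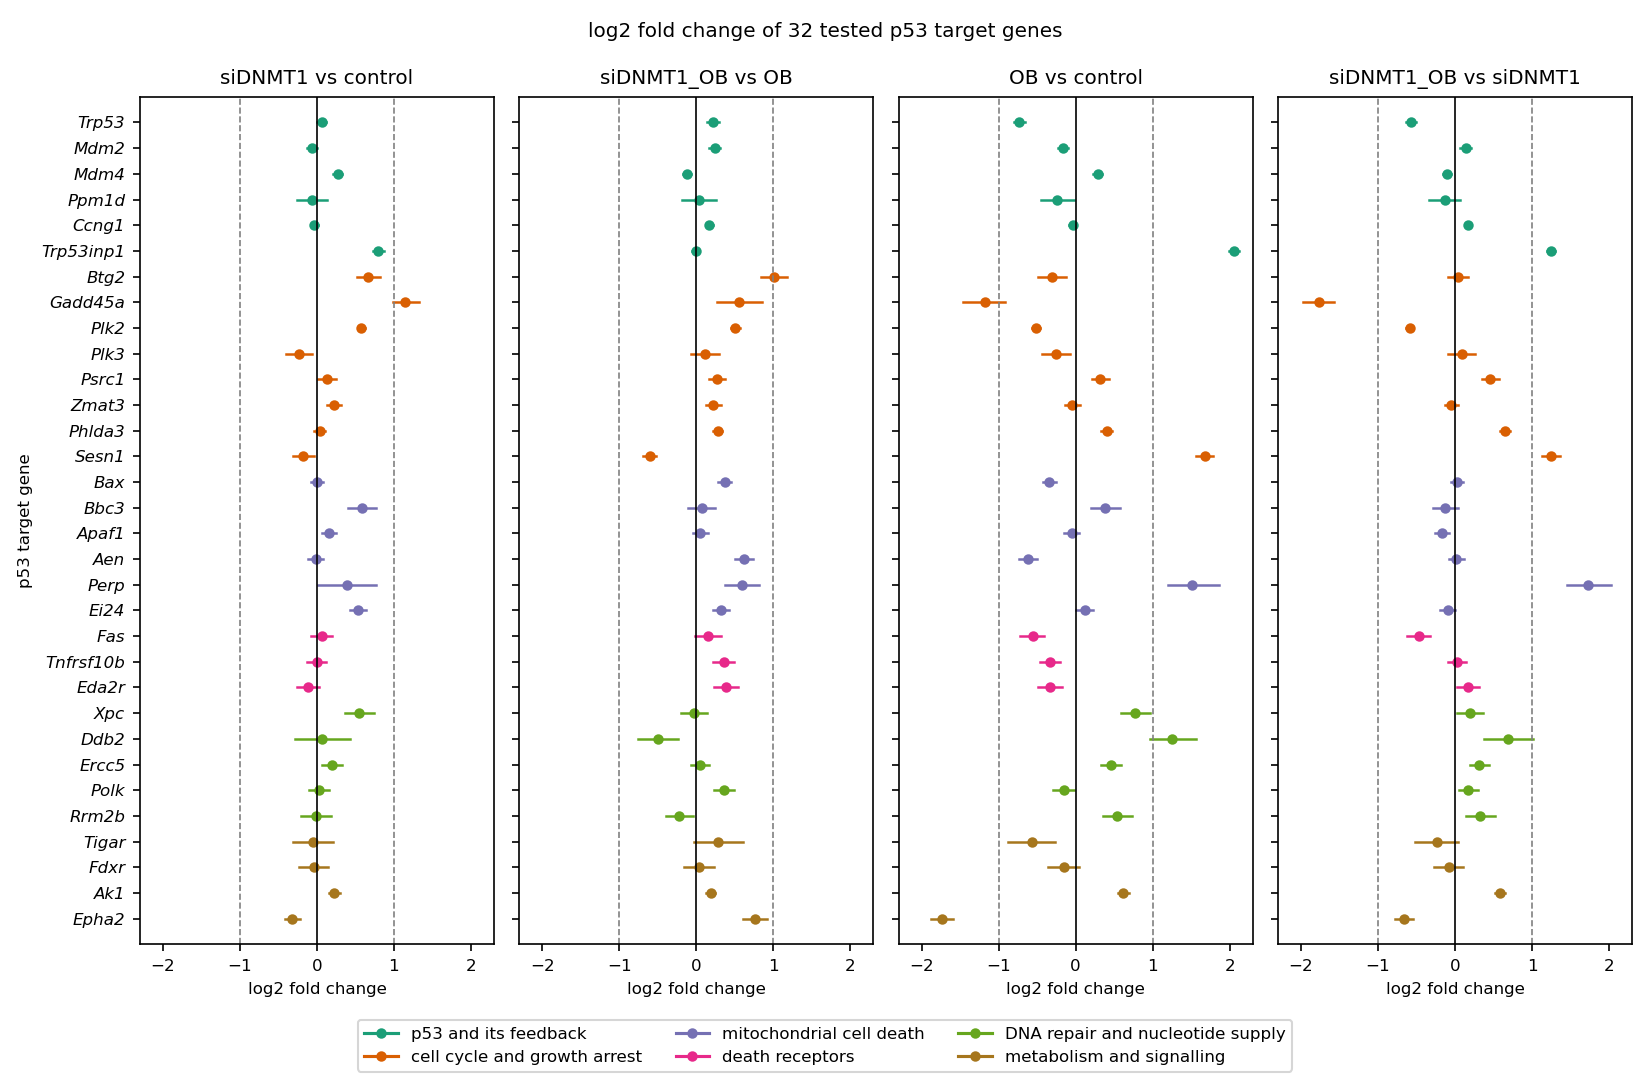
Log2 fold change (points) and 95% counting interval (lines) of the 32 tested p53 target genes, by role, in the 4 comparisons of single libraries. Dashed lines mark 2-fold. In both siDNMT1 comparisons 1 gene lies past them, Gadd45a in untreated cells and Btg2 in OB-induced cells, whereas Trp53inp1, Sesn1, Perp, Ddb2, Epha2 and Gadd45a pass them in an OB comparison.

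**Figure D3:**
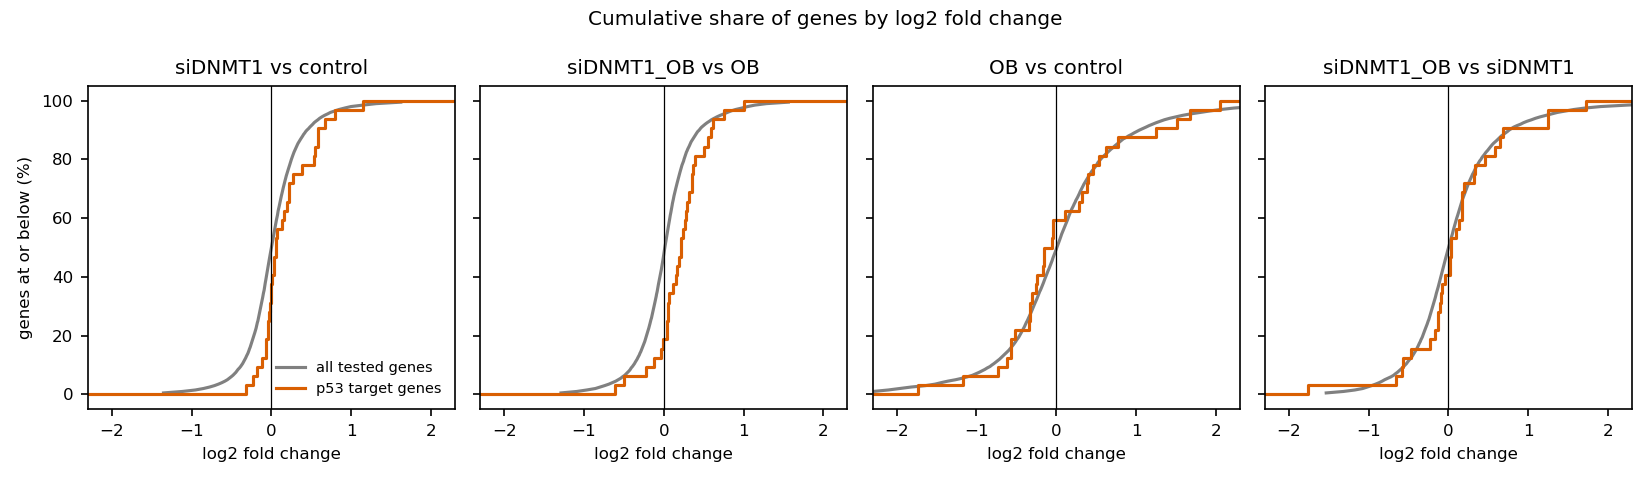
Cumulative share of genes (%) by log2 fold change for the 32 p53 target genes (orange) and all 13233 tested genes (grey), in the 4 comparisons. In siDNMT1_OB against OB the orange line is shifted to the right around its middle, with medians of 0.22 and 0.01.

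The core of the pathway comprised Trp53 itself, its inhibitors and regulators of its feedback. Trp53 had 4732 (control), 4666 (siDNMT1), 2370 (OB) and 3270 counts (siDNMT1_OB), or 174, 182, 105 and 122 CPM. Its level was thus high in both untreated libraries and low in both OB libraries. The log2 fold change was 0.06 (0.00 to 0.12) in the uninduced pair and 0.22 (0.14 to 0.30) in the induced pair, and −0.73 (−0.81 to −0.66) for OB against control. Mdm2, the ubiquitin ligase that degrades p53, had 141 (control), 135 (siDNMT1), 125 (OB) and 148 CPM (siDNMT1_OB). Its 4 libraries thus spanned a narrow range, as did those of Ccng1, a cyclin that recruits a phosphatase to MDM2, at 301 to 338 CPM. Mdm4, which blocks p53 transactivation, was 0.27 (0.21 to 0.33) higher on the log2 scale in siDNMT1 than in control, and in the induced pair its log2 fold change was −0.12 (−0.18 to −0.06). Ppm1d, the phosphatase WIP1 that turns the p53 response off, had 14.0 to 16.5 CPM, and both of its siDNMT1 intervals included 0.

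Trp53inp1 encodes a nuclear and autophagy protein that promotes p53 phosphorylation (chr4:11156431-11174379, plus strand). It had 2341 (control), 3850 (siDNMT1), 8119 (OB) and 9547 counts (siDNMT1_OB), or 86.3, 150, 359 and 357 CPM. Both OB libraries stood well above both untreated ones, and among the untreated libraries siDNMT1 was the higher. Trp53inp1 had a log2 fold change of 0.80 (0.73 to 0.87) in the uninduced pair and −0.01 (−0.05 to 0.03) in the induced pair. Against control, OB was 4.16-fold higher (log2 2.06, 1.99 to 2.12), and the library labelled siDNMT1_OB was 2.37-fold higher than siDNMT1.

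Among the genes of cell cycle and growth arrest, 6 of 8 had a log2 fold change above 0 in the uninduced pair and 7 of 8 in the induced pair, against 49.7% and 52.2% of all genes. Gadd45a (ENSMUSG00000036390, chr6:67035096-67037457, minus strand), the stress gene introduced with the half-site stretch, had 419 (control), 880 (siDNMT1), 154 (OB) and 269 counts (siDNMT1_OB), or 15.4, 34.4, 6.81 and 10.1 CPM. It was highest in siDNMT1 and low in both OB libraries. Its difference on the log2 scale was 1.15 (0.98 to 1.32) in the uninduced pair and 0.56 (0.27 to 0.86) in the induced pair. It was −1.17 (−1.46 to −0.91) for OB against control and −1.76 (−1.98 to −1.57) for the library labelled siDNMT1_OB against siDNMT1. Gadd45a shares 337 exonic bases, 19.1% of its exons, with the noncoding gene E230016M11Rik on the opposite strand. That gene had 43, 60, 43 and 74 counts in the same order, and the library kit did not mark strand.

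Btg2 (ENSMUSG00000020423, chr1:134075170-134079120, minus strand) recruits the deadenylase that shortens mRNA tails and restrains division. It had 607 (control), 912 (siDNMT1), 409 (OB) and 976 counts (siDNMT1_OB), or 22.4, 35.6, 18.1 and 36.5 CPM. The siDNMT1 library and the library labelled siDNMT1_OB stood near the same level, above control and OB. On the log2 scale the difference was 0.67 (0.52 to 0.82) in the uninduced pair and 1.01 (0.84 to 1.18) in the induced pair. The latter lay just above 2-fold, and under total count, upper quartile or pairwise TMM scaling it was just short of it. Plk2, a polo-like kinase, was likewise higher in siDNMT1 than in control, and the library labelled siDNMT1_OB stood above OB, with 6826, 9622, 3984 and 6696 counts in the same order of libraries. Its log2 fold change was 0.58 (0.53 to 0.62) in the uninduced pair and 0.51 (0.45 to 0.56) in the induced pair, and −0.51 and −0.59 with OB induction. Plk3, its relative, had 632, 509, 442 and 566 counts and a log2 fold change of −0.23 (−0.40 to −0.06) in the uninduced pair.

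Sesn1 (ENSMUSG00000038332, chr10:41809935-41908424, plus strand) had 944 (control), 788 (siDNMT1), 2517 (OB) and 1955 counts (siDNMT1_OB), or 34.8, 30.8, 111 and 73.1 CPM. It was lower in siDNMT1 than in control, and the library labelled siDNMT1_OB stood below OB, opposite to Btg2. Sesn1 had a log2 fold change of −0.18 (−0.32 to −0.04) in the uninduced pair and −0.61 (−0.69 to −0.52) in the induced pair, and OB was 3.19-fold above control. The remaining genes of this group had values above 0 in both pairs. Psrc1, a spindle protein, had log2 fold changes of 0.13 and 0.27, Zmat3, an RNA-binding protein of p53 tumor suppression, had 0.22 in each, and Phlda3, an inhibitor of AKT, had 0.04 and 0.28.

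**Figure D4:**
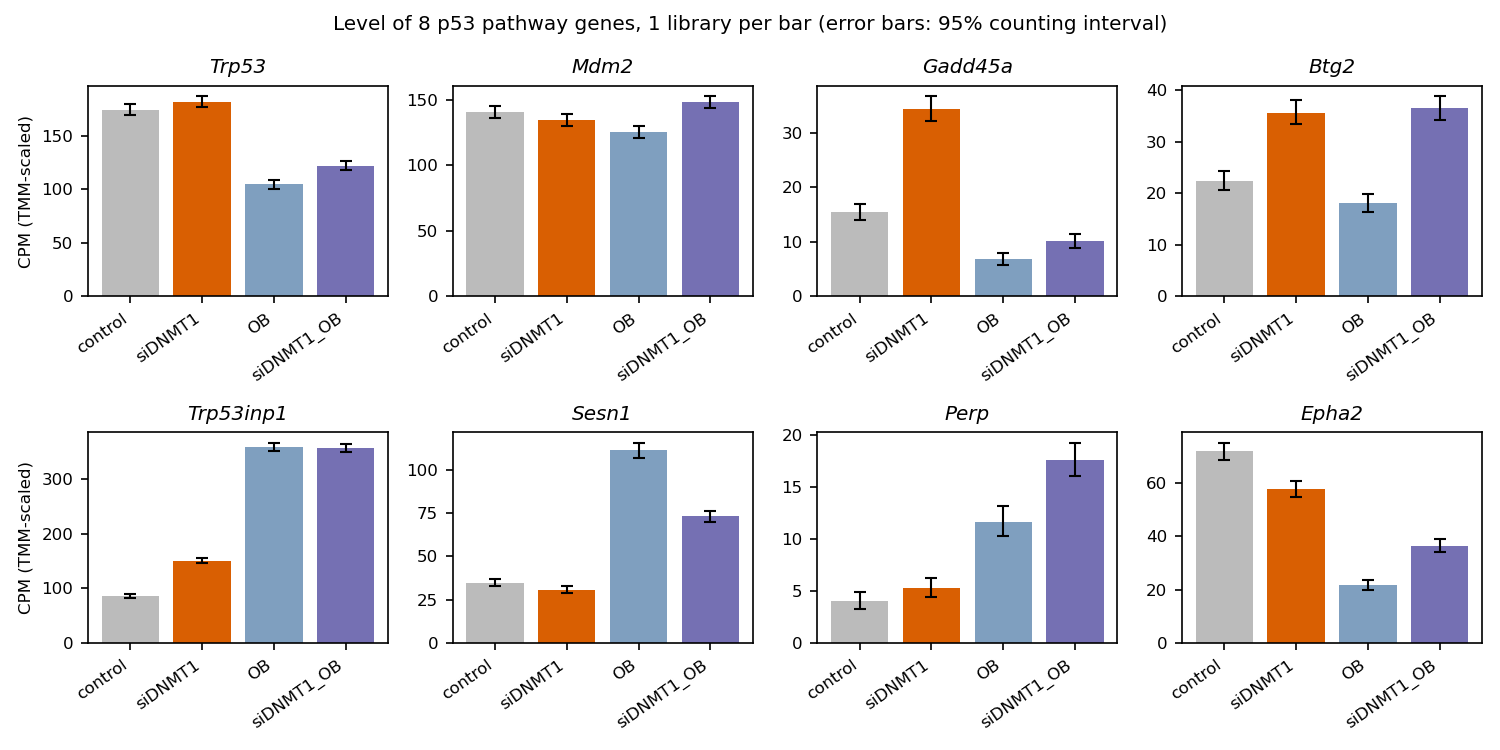
Level in CPM (TMM-scaled) of 8 genes in the 4 libraries, 1 library per bar, with 95% counting intervals as error bars. Btg2 is near 36 CPM in siDNMT1 and in the library labelled siDNMT1_OB, Trp53inp1, Sesn1 and Perp are highest in the OB libraries, and Trp53, Gadd45a and Epha2 are lower there.

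The cell death genes other than the death receptors are labelled mitochondrial cell death in the figures. The group also holds the nuclear protein Aen and the membrane protein Perp. Counting intervals lay above 0 for 4 of the 6 tested in the uninduced pair (Bbc3, Apaf1, Ei24 and Perp). In the induced pair they lay above 0 for 4 (Bax, Aen, Ei24 and Perp). Over all 13233 genes they lay above 0 for 3441 and 3652 in the same order of pairs. Bax, the pore-forming effector, had 102 CPM in control and 103 in siDNMT1, against 80.8 in OB and 104 in siDNMT1_OB. Bax had a log2 fold change of 0.00 (−0.07 to 0.08) in the uninduced pair and 0.37 (0.28 to 0.46) in the induced pair. Bbc3 (PUMA), a BH3-only activator of cell death, had 0.58 (0.41 to 0.76) in the uninduced pair and 0.07 (−0.10 to 0.25) in the induced pair. Aen, an apoptosis-enhancing nuclease, had 1729, 1613, 938 and 1706 counts, and OB alone stood low. Its log2 fold change was −0.02 (−0.12 to 0.08) and 0.62 (0.50 to 0.74) in the same order of pairs. Ei24 had 0.53 (0.43 to 0.63) and 0.32 (0.21 to 0.43), and Apaf1, the scaffold of the apoptosome, had 0.16 and 0.05.

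Perp, a desmosome and cell death membrane protein (chr10:18845020-18857073, plus strand), had 109 (control), 135 (siDNMT1), 263 (OB) and 471 counts (siDNMT1_OB), or 4.02, 5.27, 11.6 and 17.6 CPM. Perp had a log2 fold change of 0.38 (0.02 to 0.77) in the uninduced pair and 0.59 (0.38 to 0.82) in the induced pair, and OB was 2.86-fold above control. Pmaip1 (NOXA), a BH3-only gene, was the gene that did not pass the filter, with 4 (control), 12 (siDNMT1), 16 (OB) and 33 counts (siDNMT1_OB). With so few counts its log2 fold changes were 1.28 (−0.05 to 3.76) and 0.74 (−0.10 to 1.76) in the siDNMT1 pairs, and both intervals included 0. The death receptors Fas, Tnfrsf10b and Eda2r had log2 fold changes of 0.06, −0.00 and −0.11 in the uninduced pair, with all 3 intervals including 0. In the induced pair they had 0.15, 0.36 and 0.39, and the intervals of Tnfrsf10b and Eda2r lay above 0. For OB against control they had −0.56, −0.33 and −0.33.

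Of the DNA repair and nucleotide supply genes, Xpc, a sensor of helix-distorting lesions, had a log2 fold change of 0.55 (0.36 to 0.74) in the uninduced pair and −0.03 (−0.20 to 0.13) in the induced pair. Ddb2, its partner in damage recognition, had 136, 135, 272 and 228 counts, and both OB libraries stood above both untreated ones. OB was 2.38-fold above control (log2 1.25, 0.96 to 1.57), and in the induced pair the log2 fold change was −0.49 (−0.76 to −0.24). Ddb2 shares 652 exonic bases (23.8% of its exons) with Acp2 on the opposite strand, which had 1234, 1293, 1837 and 1936 counts. Rrm2b, the p53-inducible ribonucleotide reductase subunit, had 448, 420, 544 and 552 counts, with −0.01 (−0.21 to 0.18) and −0.22 (−0.40 to −0.05) in the untreated and the induced pair. Its span holds the pseudogene Gm3362, which shares no exonic base with it and had 332, 182, 328 and 253 counts. Ercc5, an excision nuclease, had 0.19 and 0.05, and Polk, a translesion polymerase, had 0.03 and 0.36. For the library labelled siDNMT1_OB against siDNMT1, the 5 genes of this group had log2 fold changes above 0, as did 50.1% of all genes. Of the 5, 0 were 2-fold higher, against 6.83% of all genes.

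Epha2, an ephrin receptor tyrosine kinase (ENSMUSG00000006445, chr4:141301240-141329384, plus strand), had 1950 (control), 1477 (siDNMT1), 487 (OB) and 976 counts (siDNMT1_OB), or 71.9, 57.7, 21.5 and 36.5 CPM. It was lower in siDNMT1 than in control, whereas the library labelled siDNMT1_OB, in which Dnmt1 was not lower, stood above OB. The log2 fold change was −0.32 (−0.42 to −0.22) in the former and 0.76 (0.60 to 0.92) in the latter. OB against control gave −1.74 (−1.89 to −1.60). Ak1, an adenylate kinase, had 0.22 and 0.19 in the siDNMT1 pairs. Tigar, a glycolysis regulator, had −0.05 and 0.28, and Fdxr, a mitochondrial reductase, had −0.04 and 0.04. The intervals of Tigar and Fdxr included 0 in both pairs.

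The difference between pairs is the log2 fold change of the induced pair minus that of the uninduced pair. It rests on the library labelled siDNMT1_OB, in which Dnmt1 was not lower than in OB. The difference was past 2-fold above 0 for 1 of 32 genes (Epha2, 1.08, interval 0.89 to 1.26) and below 0 for 0, against 3.27% and 2.95% of all genes. Among the genes just named it was −0.81 (−0.89 to −0.72) for Trp53inp1, −0.59 (−0.92 to −0.26) for Gadd45a, 0.64 (0.49 to 0.79) for Aen and 0.34 (0.12 to 0.56) for Btg2. The median difference was 0.10 over the 32 genes and 1.17 over the 20 proliferation genes, whose part here was not tested.

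**Figure D5:**
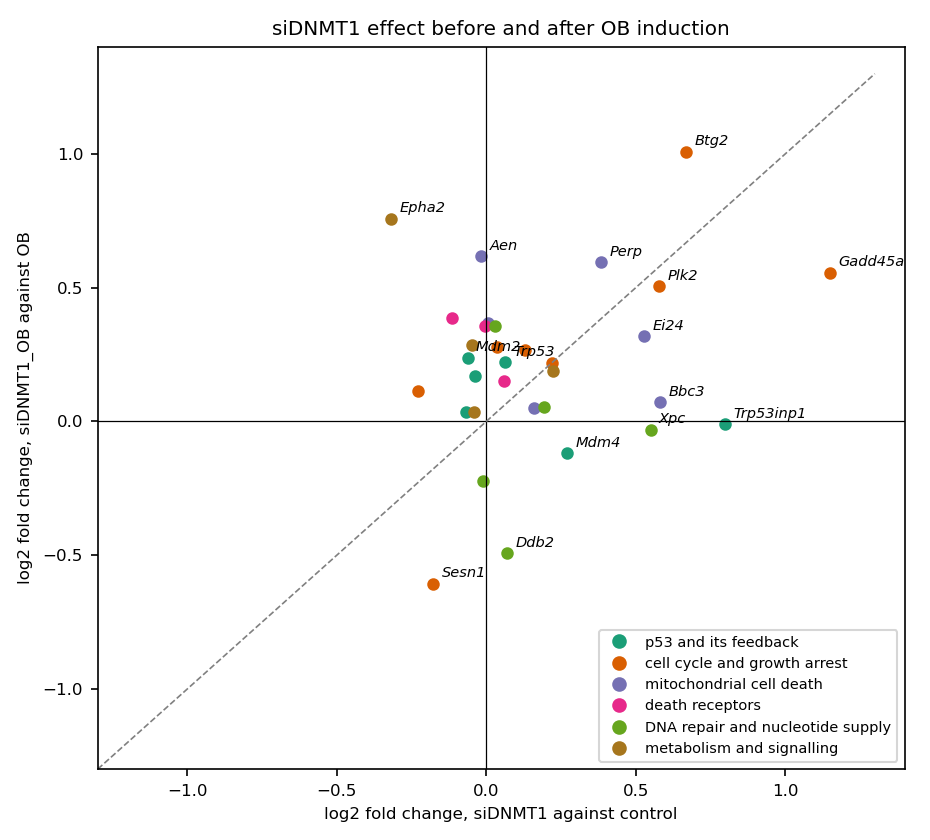
Log2 fold change of the 32 tested p53 target genes in the uninduced pair (horizontal) and the induced pair (vertical), coloured by role, with equality as the dashed line. Btg2 and Gadd45a lie to the upper right, Trp53inp1 at 0.80 and −0.01, Epha2 at −0.32 and 0.76, and Sesn1 at the lower left.

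An additive edgeR quasi-likelihood fit of siRNA and OB induction over all 4 libraries, which takes what the additive model leaves over (1 residual degree of freedom) as its spread, gave no adjusted call for the siRNA term among 32 genes, nor among all genes (0.0%). At an unadjusted p under 0.05 it named 6 of 32 (Btg2, Gadd45a, Plk2, Sesn1, Perp and Ei24), against 8.68% of all genes. The OB term had adjusted calls for 10 of 32 (Trp53, Trp53inp1, Gadd45a, Plk2, Phlda3, Sesn1, Perp, Ddb2, Ak1 and Epha2), against 21.1% of all genes. The fit treats DNMT1 siRNA as equal in both states, which Dnmt1 itself did not show.

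Compared per kilobase of exon, the control library was led by Ccng1 at 87.9 CPM per kb, Phlda3 at 79.3, Bax at 64.9, Plk2 at 56.0, Ak1 at 44.0 and Trp53 at 43.1. In the other libraries the order changed at the top. In siDNMT1, Plk2 reached 83.6, next to Ccng1 at 85.7. In OB, Phlda3 led at 104.8 and Trp53inp1 reached 55.4 CPM per kb, against 13.3 in control. Rrm2b, Ddb2, Tigar and Perp were among the lowest of the tested genes in control, at 1.81 to 2.59 CPM per kb.

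Other genes of the pathway were read from lists drawn up alongside. Among 35 other p53 targets, 32 passed the filter, and the median log2 fold change was 0.02 in the uninduced pair and 0.12 in the induced pair. Cdkn1a had 3865 (control), 5188 (siDNMT1), 3970 (OB) and 7005 counts (siDNMT1_OB), or 142, 203, 175 and 262 CPM. Its log2 fold change was 0.51 (0.45 to 0.57) in the uninduced pair and 0.58 (0.52 to 0.63) in the induced pair, close to that of Plk2. Igfbp3, a secreted IGF-binding protein and a p53 target in human cells, went the other way, with 145, 24, 154 and 42 counts and log2 fold changes of −2.42 (−3.20 to −1.88) and −2.06 (−2.65 to −1.62). Ckap2, a spindle gene, had 2401, 2268, 477 and 1344 counts, with 0.00 in the uninduced pair and 1.25 in the induced pair. In this list 0 genes were 2-fold higher and 1 was lower in the uninduced pair, and 1 was higher and 1 lower in the induced pair, against 1.97% and 1.37%, and 2.36% and 1.37%, of all genes.

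Among 31 upstream regulators and kinases of p53, 30 passed the filter, with medians of 0.03 in the uninduced pair and 0.11 in the induced pair. None was past 2-fold in the uninduced pair, against 1.97% of all genes higher and 1.37% lower, and 2 of 30 were higher in the induced pair, against 2.36%. These were Chek1, the replication checkpoint kinase, with 630, 526, 99 and 287 counts (log2 fold change 1.28, 0.96 to 1.64), and Brca1, a repair gene, with 1420, 1358, 266 and 679 counts (1.10, 0.90 to 1.32). Both were lowest in OB, as were the proliferation genes in sum.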

How the data were processed

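Libraries of mRNA were made with a TruSeq RNA v2 kit, which does not mark strand. Per the submitters' processing notes the authors used Trimmomatic, HISAT2 and featureCounts with build mm10, and deposited raw gene counts without normalization. For the RNA reads, tool versions, the strand setting and the handling of multimapped reads are not given in the sources used here. Positions are those of the table, and 98.3% of 54409 shared genes had the same position in GENCODE M21 (GRCm38), as did 31 of the 33 p53 target genes (not Pmaip1 and Fas).

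From the deposited counts, genes with a mean of at least 1 CPM were kept, TMM factors (0.991 to 1.01) were computed in edgeR 4.0.16 (R 4.3.3), and log2 fold changes were taken from CPM after adding a prior count of 2. A gene counted as higher or lower past a log2 fold change of 1 (1.5-fold as an alternative). Intervals are exact (Clopper-Pearson) 95% counting intervals, with a normal approximation for the difference between pairs. They and the floor of 3 counts cover counting error only, as each group was 1 library. Reads carried no molecular identifiers, so even counting error may be understated. The procedure was run on simulated data with counting error only, so that run does not bear on spread between replicates.

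The p53 target genes and all lists (other p53 targets, regulators, proliferation, BCL2 family, mesenchymal, other cell type and osteoblast markers) were chosen with earlier results of these data known. Genes described with counts were those past 2-fold in a comparison, the 3 highest and 3 lowest per comparison, those under the filter, Dnmt1, Cdkn1a and, of each other list, up to 4 past 2-fold in a siDNMT1 comparison. Of the proliferation list the sum and medians are given. Genes that overlap a p53 target gene also have counts. Promoter stretches are from RefSeq (GRCm38.p6). The other p53 target genes are given briefly, so that each of the 33 is accounted for. Alternatives were total count, upper quartile, DESeq2 1.42.0 and pairwise TMM scaling, a filter of 5 CPM or none, a prior count of 0.5, a binomial test of the reads of each pair of libraries, which compares libraries and not conditions, an additive fit, and leaving out overlapping genes.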

Additional observations from a re-analysis of the deposited data

Results flagged for a closer look

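Mdm4 and Epha2 were the p53 target genes whose log2 fold changes had opposite signs in the uninduced pair and in the induced pair with both counting intervals off 0. Other genes had opposite signs with at least 1 interval that included 0, such as Plk3 (−0.23 and 0.11) and Xpc (0.55 and −0.03). With 1 library per group the difference was not tested. The share of all genes that met the same rule is not given. Intervals off 0 were common, at 52.8% of all genes in the uninduced pair and 51.2% in the induced pair. For Mdm4 the log2 fold change was 0.27 in the uninduced pair and −0.12 in the induced pair, a difference of −0.39. For Epha2 it was −0.32 and 0.76, a difference of 1.08. Both directions in the induced pair rest on the library labelled siDNMT1_OB, in which Dnmt1 was not lower than in OB.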

How the results depend on the processing

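With 1 library per group no library could be left out. Of 100 alternatives for the counts of genes, 81 stayed within 1.5 times of the main count and 19 did not. In the uninduced pair the 1 gene higher became 2 with no filter (Pmaip1 added), 3 at 1.5-fold and 0 without genes that overlap another tested gene. In the induced pair the 1 gene higher (Btg2) became 0 under total count, upper quartile and pairwise TMM scaling and 4 at 1.5-fold, and the 0 lower became 1 at 1.5-fold. For OB against control the 2 genes lower became 4 at 1.5-fold and 1 without overlapping genes. For the library labelled siDNMT1_OB against siDNMT1 the 3 higher became 5 and the 1 lower became 3 at 1.5-fold, and the lower became 0 without overlapping genes. The additive edgeR fit called 0 genes for siRNA in either pair and 10 for OB in either comparison. The difference between pairs gave 2 genes above and 2 below at 1.5-fold. Shares of all genes at 1.5-fold were taken for the uninduced and the induced pair only. The counts at 1.5-fold for the OB comparisons and for the difference between pairs therefore have no share to be set against. Under the 32 alternatives for the median over the p53 target genes, it ranged from 0.05 to 0.09 in the uninduced pair, 0.19 to 0.22 in the induced pair, −0.15 to −0.05 for OB against control and 0.02 to 0.04 for the library labelled siDNMT1_OB against siDNMT1. Of 660 alternatives for single genes 659 stayed within the counting interval of the main value, and the exception was Ccng1 in OB against control, at 0.01 under upper quartile scaling. No gene past 2-fold changed sign. In 8 alternatives the sign changed for 6 genes with main values within 0.05 of 0 (Ccng1 and Zmat3 for OB against control, and Aen, Bax, Rrm2b and Tnfrsf10b in the uninduced pair). Another scaling moved no log2 fold change of a p53 target gene by more than 0.05. The cause of these moves was not tested. Depth limited Pmaip1 most, at 4 to 33 counts.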

Other observations

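Among 12 antiapoptotic BCL2 family and other BH3 genes, 9 passed the filter, and their median log2 fold change was 0.04 in the uninduced pair and −0.04 in the induced pair. Bmf, a BH3-only gene, had 163 (control), 468 (siDNMT1), 1346 (OB) and 1086 counts (siDNMT1_OB). Its log2 fold change was 1.59 (1.34 to 1.87) in the uninduced pair and −0.55 (−0.67 to −0.44) in the induced pair. OB was 9.79-fold above control.

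Of 10 mesenchymal markers, 9 passed the filter. Their median log2 fold change was 0.11 for siDNMT1 against control, 5 of the 9 were above 0, and 1 was 2-fold lower, against 1.37% of all genes. This was Ly6a (Sca-1), with 3931, 1812, 3039 and 2494 counts in control, siDNMT1, OB and siDNMT1_OB. Of 7 osteoblast markers 3 passed the filter. Runx2 and Dlx5, transcription factors of the lineage, had log2 fold changes of 0.35 and 0.48 in the uninduced pair, and 0.26 and 0.31 in the induced pair. Spp1, which encodes osteopontin, had 14862 (control), 5270 (siDNMT1), 4226 (OB) and 7261 counts (siDNMT1_OB), and its log2 fold change was −1.41 in the uninduced pair and 0.54 in the induced pair.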
